A study of Homo sapiens with 10 samples.

Results

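K562 cells that had recovered for 24 h after 6 Gy of ionizing radiation from a 60Co source were profiled for γH2AX by CUT&RUN in 2 libraries, and untreated K562 cells were profiled for H2AX in 2 libraries. These 4 libraries, chosen by their titles, are compared here out of 10 in the series. K562 is an erythroleukaemia line, and in CUT&RUN an antibody directs a nuclease to cut out the DNA around its target. The γH2AX antibody was a mouse monoclonal, clone JBW301. The antibody label of the libraries titled H2AX names a rabbit polyclonal to histone H4, so irradiation, time and antibody all differed between the groups and cannot be told apart. The labels do not say that replicates came from separate cultures, so the spread between replicates may be technical. For reference, the series also holds K562 γH2AX at 1 h after the same dose (2 libraries), K562 H3K27me3 at 1 h (1 library), HepG2 γH2AX at 1 h after the same dose (1 library) and untreated HepG2 H2AX (2 libraries, with the same H4 antibody label). HepG2 is a hepatocellular carcinoma line.

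H2AX is a variant of histone H2A that is spread through chromatin. At a double strand break the kinases ATM, ATR and DNA-PK phosphorylate it near its C-terminus, which gives γH2AX, and the mark can spread over long stretches on both sides of the break and is removed as repair proceeds. H3K27me3 is the mark that Polycomb repressive complex 2 deposits over silenced genes and domains. The comparison of 24 h with H2AX addresses where, relative to H2AX, γH2AX lay a day after irradiation.

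In the irradiated cells at 24 h the γH2AX tracks were lower, relative to H2AX, on the gene-rich chromosomes 19, 22, 17 and 16. They were also lower in H3K27me3-rich windows, and higher on chromosomes 4 and 13 and, on average, in windows with little H3K27me3. Bins with a mean 1 h read depth above 2.5 were poor in H3K27me3 too, but there replicate 2 was below H2AX. The differences were small and broad. In the 100-kb windows where both 24 h libraries could be compared they stayed between -0.75 and 0.73 on the log2 scale, and with replicate 2 alone in all bins they reached 0.85. HepG2 γH2AX at 1 h over HepG2 H2AX put windows in much the same order. At the peaks listed for 24 h and at the sites of the shared 1 h peaks, the local rise in 24 h replicate 2 was on average smaller than that in H2AX.

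The signal of 24 h replicate 1 was incomplete, which set the bins that could be compared. Levels are read depth in a 1-kb bin divided by the mean of the library, so 1 is the library's average and the total amount of the mark cannot be read from them. In each of the 933066 bins (33.3% of the 2798557 outside chromosome Y) where the mean depth of the K562 1 h tracks exceeded 1.642 reads per base, the track of 24 h replicate 1 stood at 0. Of the other 1865491 bins, 3.58% were at 0 in replicate 1 and 3.88% in replicate 2. Above the limit replicate 2 was at 0 in 0.316% of bins. The 24 h libraries were therefore compared jointly only in bins at or under the limit, with every library rescaled on those bins, and replicate 2 alone in all bins. The mean depth in the bins at or under the limit was 0.489 and 0.535 reads per base at 24 h and 0.586 and 0.590 in H2AX, and over all bins it was 0.592 in 24 h replicate 2 and 0.672 and 0.671 in H2AX.

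In 100-kb windows that kept at least 50% of their bins, 24 h differed from H2AX more than replicates differed from each other. The SD over 19571 windows of the log2 difference between the means of 24 h and of H2AX was 0.26. The SD of the difference between the 24 h replicates was 0.12 and that between the H2AX replicates was also 0.12. At this depth a window held an estimated median of 907 and 995 reads in the 24 h libraries. The tracks hold depth, so reads were estimated with a read length of 41 bp inferred from the steps of the tracks. At 10 kb the difference between groups had an SD of 0.34, against 0.35 between the 24 h replicates, so single 10-kb windows were mostly not resolved. At 1 Mb the SD was 0.23 between groups, 0.05 between 24 h replicates and 0.07 between H2AX replicates. When 24 h replicate 1 was set over H2AX replicate 1 and 24 h replicate 2 over H2AX replicate 2, so that the ratios shared no library, Spearman's rho over windows was 0.837 at 100 kb, 0.396 at 10 kb and 0.968 at 1 Mb. The windows share their chromosomes and any bias of the antibodies, and rho was positive within each of 23 chromosomes. Both ratios had the same sign in 86.7% of the 100-kb windows.

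**Figure D1:**
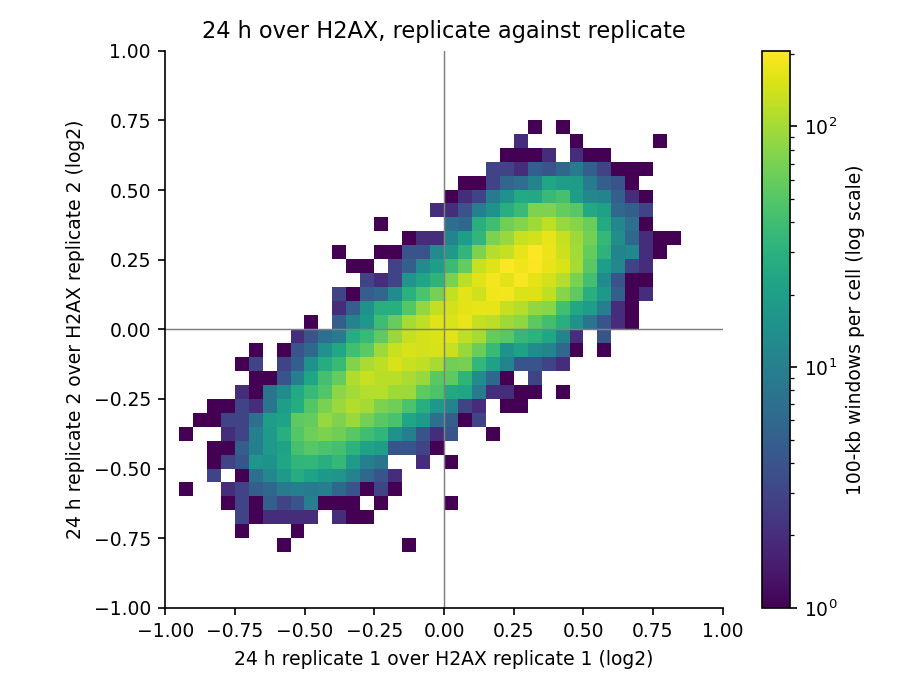
Density of 19571 windows of 100 kb, with the log2 ratio of 24 h replicate 1 to H2AX replicate 1 on the x axis and that of 24 h replicate 2 to H2AX replicate 2 on the y axis; colour is the number of windows per cell on a log scale. The windows lie along the diagonal, with Spearman's rho 0.837 and 86.7% of windows on the same side of 0 in both ratios.

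At 100 kb, limma called 11416 of 19571 windows (58.3%; Benjamini-Hochberg adjusted p under 0.05), 7021 of them higher (35.9%) and 4395 lower (22.5%) at 24 h. Windows next to each other move together, so these counts are not counts of separate sites. In 15788 windows (80.7%) the 24 h libraries lay both above or both below the H2AX pair, 9602 above and 6186 below. Only 469 windows had a log2 difference beyond 0.5 in size, and 8075 were beyond 0.25. The median difference was 0.08. With median-of-ratios scaling the median was 0.01 and the share of calls that were higher was 45.8% (4781 higher, 5656 lower) in place of 61.5%. At 1 Mb limma called 1646 of 2154 windows (76.4%), 985 higher (45.7%) and 661 lower (30.7%), and with median-of-ratios scaling 812 higher and 819 lower. At 10 kb it called 3370 of 194379 (1.73%), 1261 higher (0.649%) and 2109 lower (1.08%), a share of 37.4% higher that became 27.3% with median-of-ratios scaling. The counts rest on the spread of these 4 libraries. When all 10 libraries shared a single estimate of the spread, limma called 446 windows at 100 kb, 337 at 1 Mb and 0 at 10 kb, with 24036 at an unadjusted p under 0.05 at 10 kb. Most calls of that fit were lower: 390 lower and 56 higher at 100 kb, and 211 lower and 126 higher at 1 Mb. Without H2AX replicate 1 the 100-kb count was 6491 and the 10-kb count 43, without H2AX replicate 2 the 10-kb count was 748, and without 24 h replicate 1 or 2 it was 15140 or 10793.

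Replicate 2 alone could be followed through all bins. Replicate 2 was set against the H2AX pair in a fit of every library but 24 h replicate 1. Only groups with 2 libraries set the spread of that fit, so replicate 2 added nothing to it. At 1 Mb limma called 1216 of 2791 windows (43.6%), 631 higher (22.6%) and 585 lower (21%). With median-of-ratios scaling the split was 457 higher and 656 lower. At 100 kb limma called 0 of 27658 windows, with 8034 at an unadjusted p under 0.05, and at 10 kb 0 of 274794, with 36666 at an unadjusted p under 0.05. With only replicate 2 and the H2AX pair in the fit, the H2AX pair alone set the spread. The median difference in that fit was 0.05 at 100 kb and 0.03 at 10 kb. Without H2AX replicate 1, or without H2AX replicate 2, limma called 0 windows at 1 Mb, with 730 and 1291 at an unadjusted p under 0.05. Replicate 2 lay outside the H2AX pair in 93.6% of the 100-kb windows, 14386 above and 11502 below both.

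All 23 chromosomes had both 24 h libraries on the same side of both H2AX libraries in the bins at or under the limit (100%), 10 above and 13 below. An exact permutation test of 2 against 2 libraries cannot give a two-sided p under 0.333, so chromosomes were not tested one by one. Chromosome 19, the most gene-dense, stood at 1.06 and 1.05 in the 24 h libraries and at 1.42 and 1.35 in H2AX, a log2 difference of -0.39. Chromosome 22 stood at 0.723 and 0.722 at 24 h and at 0.982 and 0.912 in H2AX, also -0.39. Both 24 h libraries were thus lower on these chromosomes by more than the H2AX replicates differed. Chromosome 17 differed by -0.30, chromosome 16 by -0.21, chromosome 20 by -0.16 and chromosome 15 by -0.14. At the other end, chromosome 4 stood at 1.05 and 1.05 at 24 h and at 0.903 and 0.934 in H2AX, a difference of 0.19. Chromosome 13 stood at 0.725 and 0.730 against 0.641 and 0.661, a difference of 0.16, and chromosomes 8 and X followed at 0.10 each. Chromosomes 1, 9, 21, 10, 14, 11 and 12 lay between -0.08 and -0.02. Chromosomes 2, 3, 5, 6, 7 and 18 lay between 0.02 and 0.07 and fell below 0 with median-of-ratios scaling, so for them no direction is given.

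Counts of called windows are read against the shares over all chromosomes, 22.5% lower and 35.9% higher. On chromosome 19 limma called 264 of 322 windows of 100 kb lower (82.0%) and 2 higher, and on chromosome 22 it called 165 of 194 lower (85.1%) and 0 higher. On chromosome 17 it called 316 of 463 lower (68.3%) and 22 higher. On chromosome 4 it called 1048 of 1555 higher (67.4%) and 79 lower. Calls were not limited to these chromosomes: on chromosome 1 limma called 414 of 1204 windows lower and 332 higher. Across the 23 chromosomes, the 24 h ratio fell as the number of protein-coding genes per Mb rose, with Spearman's rho -0.843 for 24 h replicate 1 over H2AX replicate 1 and -0.834 for replicate 2 over H2AX replicate 2. The genes were counted from RefSeq on GRCh38.p14 and used only as a number per chromosome. Chromosome 18 is an exception to that order: it has as few genes per Mb as chromosome 13 (3.66 and 3.67) and differed by 0.04. The H2AX pair itself was ordered by gene density, with rho 0.886 for H2AX replicate 1 over replicate 2, although that difference was small beside that of 24 h; its part in the 24 h difference was not tested. HepG2 γH2AX over HepG2 H2AX had rho -0.911. K562 γH2AX at 1 h over H2AX, in all bins, had rho -0.048, while 24 h replicate 2 over H2AX in all bins had -0.887. These rho values are descriptions over 23 chromosomes that share libraries and base composition.

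**Figure D2:**
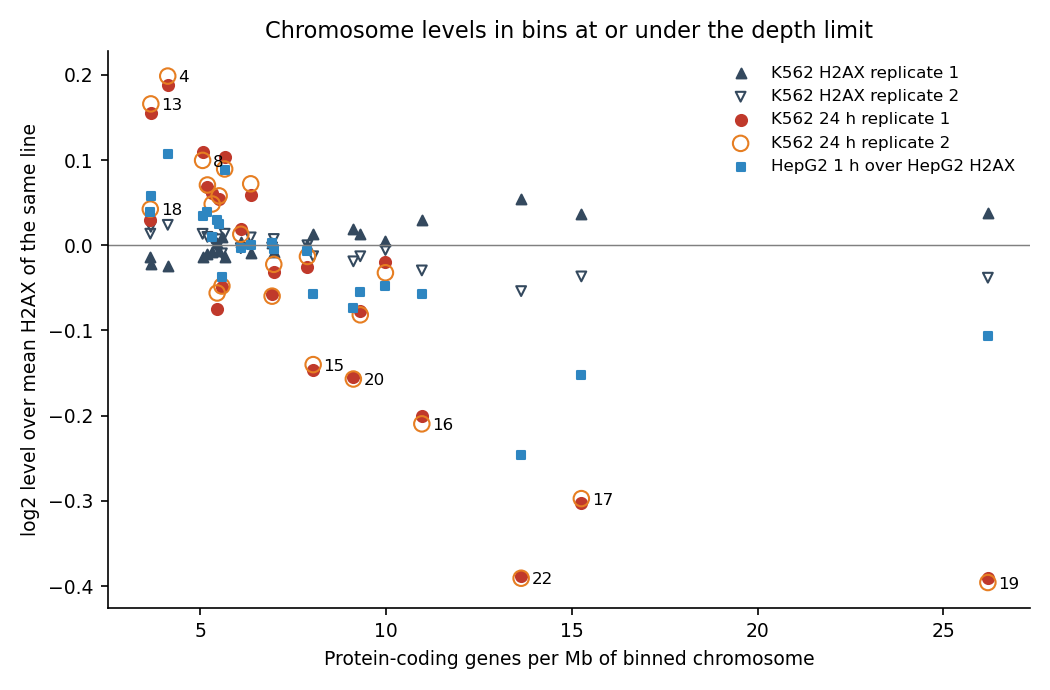
Log2 level of each K562 library over the mean of the K562 H2AX pair for the 23 chromosomes, and of HepG2 γH2AX over HepG2 H2AX, against protein-coding genes per Mb, in the bins at or under the limit. The 24 h libraries (circles) overlie each other and run from 0.19 on chromosome 4 to -0.39 on chromosomes 19 and 22, while the H2AX libraries (triangles) stay near 0.

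With all chromosomes pooled, the difference was lower near chromosome ends than far from them. The shortest chromosomes, which include those with the lowest differences, cannot hold a window more than 30 Mb from either end. Distance was therefore mixed with chromosome in these classes, and its part within chromosomes was not tested. In windows within 1 Mb of an end, 24 h replicate 2 averaged -0.19 from H2AX (404 windows, all bins), and in windows more than 30 Mb from either end it averaged 0.09 (14836 windows). In the joint comparison, limma called 49.3% of windows within 1 Mb of an end lower and 7.42% higher, and 16.1% lower and 44.2% higher beyond 30 Mb. The HepG2 ratio moved from -0.11 to 0.02 over the same classes. Beside the largest unbinned gap of each chromosome, replicate 2 averaged 0.06 within 1 Mb and 0.06 beyond 30 Mb, against -0.02 from 1 to 3 Mb.

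The windows with the largest differences at 100 kb are given with hg19 coordinates; no hg19 gene annotation was used here, so they carry no gene names. The highest was chr11:50500001-50600000, where the 24 h libraries stood at 1.32 and 1.28 and the H2AX libraries at 0.751 and 0.771. Its log2 difference was 0.73 ± 0.08 (SE, limma adjusted p = 3.9e-16 with the 4 libraries). With all 10 libraries in a single fit its limma adjusted p was 0.042. chr4:125600001-125700000 stood at 1.37 and 1.37 against 0.809 and 0.897, a difference of 0.65. chr12:34600001-34700000 stood at 1.23 and 1.33 against 0.755 and 0.873, a difference of 0.62. The other 7 of the 10 highest were 2 further windows on chromosome 4, 2 on chromosome 13 and 1 each on chromosomes 6, 7 and 2, with differences of 0.58 to 0.62. H3K27me3 was between 0.016 and 0.045 of its library mean in 9 of these 10 windows, and 0.691 in chr4:125600001-125700000.

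The lowest was chr15:43900001-44000000, where the 24 h libraries stood at 0.365 and 0.384 and the H2AX libraries at 0.728 and 0.607. Its log2 difference was -0.75 ± 0.10 (SE, limma adjusted p = 8.2e-12 with the 4 libraries). With all 10 libraries in a single fit its limma adjusted p was 0.042. chr22:25800001-25900000 stood at 0.656 and 0.594 against 1.13 and 0.998, a difference of -0.72. chr19:7200001-7300000 stood at 1.31 and 1.26 against 2.22 and 2.05, a difference of -0.71, so it was still above the library average at 24 h. The other 7 of the 10 lowest lay on chromosomes 17 (3 windows), 19 (2 windows), 9 and 11, with differences of -0.71 to -0.68. H3K27me3 in the 10 lowest spanned 0.283 to 3.94 of its library mean, so they were not all rich in it. It stood at 0.988 in the window on chromosome 15 and at 0.428 in that on chromosome 22. In every one of these 20 windows the 24 h and H2AX pairs did not overlap, which the choice of windows required.

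At 1 Mb the 10 highest windows lay on chromosomes 4 (5 windows), 6 (2 windows), 3, 8 and 2, with differences of 0.41 to 0.44. The first, chr6:115000001-116000000, stood at 1.36 and 1.30 at 24 h and 0.938 and 1.00 in H2AX. The 10 lowest lay on chromosomes 19 (5 windows), 16 (2 windows), 17, 9 and 22, with differences of -0.54 to -0.48. The first of these, chr17:4000001-5000000, stood at 0.674 and 0.656 at 24 h and 1.05 and 0.936 in H2AX. With replicate 2 in all bins, 3 of these windows were again among the 5 highest or 5 lowest: chr4:126000001-127000000 at 1.01 against 0.663 and 0.734 in H2AX, chr3:166000001-167000000 at 1.03 against 0.678 and 0.755, and chr17:4000001-5000000 at 0.641 against 0.993 and 0.884. Windows that were outside the joint comparison entered too. chr1:190000001-191000000 stood at 1.44 against 0.951 and 1.04, and chr9:131000001-132000000 at 1.11 against 1.68 and 1.54. The 2 further highest were on chromosomes 11 and 2, and the 3 further lowest were on chromosomes 16 and 19.

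Windows in a row with both 24 h libraries above the H2AX pair, or both below it, were joined into runs, and the longest runs were above. The first was chr14:82600001-88500000, with 59 windows in a row at a mean of 0.677 and 0.669 at 24 h against 0.512 and 0.560 in H2AX. Runs of 54 windows followed at chr4:42400001-47800000, chr3:143200001-148600000 and chr4:178300001-183700000, and one of 53 at chr13:81500001-86800000. Their H3K27me3 averaged 0.030 to 0.204 of the library mean. The longest runs below had 20 windows, at chr17:31300001-33300000 and chrX:46300001-48300000. The next were chr9:128500001-130200000 with 17 windows, and chr12:7300001-8900000 and chr1:17800001-19400000 with 16 each, and H3K27me3 in these 5 runs averaged 1.08 to 3.54. There were 274 runs of 10 or more windows above and 61 below, and the median run in either direction had 2 windows. The difference in run length between the directions was not tested, and more windows lay above than below.

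H3K27me3, from 1 library of irradiated cells at 1 h, ordered the 24 h difference in both replicates. Its level was not divided by H2AX, so the classes also differed in H2AX. H2AX rose from 0.720 and 0.767 in the lowest class to 1.69 and 1.57 in the highest, and the part of this was not tested. In the 7447 windows with H3K27me3 under 0.25 of its mean, 24 h replicate 1 averaged 0.25 and replicate 2 also 0.25 above H2AX on the log2 scale, and limma called 72.2% of them higher and 2.71% lower, against 35.9% and 22.5% over all windows. In the 2868 windows from 0.5 to 1, the averages were 0.01 and 0.02. In the 2935 windows from 2 to 4, they were -0.21 and -0.23, and limma called 61.4% lower and 1.53% higher. In the 581 windows at 4 or more, they were -0.31 and -0.35, and limma called 499 lower (85.9%) and 0 higher. H2AX was itself high there, at 1.69 and 1.57 against 1.30 and 1.27 at 24 h, so these windows stayed above the library average at 24 h. The difference between windows at 2 or more and windows under 1 was -0.39 in replicate 1 and -0.41 in replicate 2, a mean of -0.40 ± 0.02 (SD, n = 2). The H2AX replicates differed along the same order, H2AX replicate 1 being 0.04 below the pair's mean in the lowest class and 0.05 above it in the highest; the part of this in the result was not tested. The difference was -0.33 over H2AX replicate 2 alone and -0.47 over H2AX replicate 1 alone.

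With all bins kept, 24 h replicate 2 showed the same order over a narrower range, from 0.16 in the lowest H3K27me3 class (12070 windows) to -0.26 in the highest (1267 windows, 90.3% of them below both H2AX libraries). The lowest class was mixed, with 71.7% of its windows above both H2AX libraries and 25.3% below both. K562 γH2AX at 1 h, in the bins at or under the limit, was ordered the same way over a wider range, from 0.53 and 0.86 in the lowest class to -0.52 and -0.83 in the highest. Those bins were selected on the 1 h depth, so the 1 h values there are not those of the whole genome. In all bins, the 1 h libraries averaged 1.17 and 1.29 in the lowest class, against 0.871 and 0.897 in H2AX. In the highest class they averaged 0.811 and 0.651, against 1.55 and 1.46 in H2AX.

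HepG2 γH2AX at 1 h over HepG2 H2AX, a ratio that shares no library with the K562 ratio, followed it window by window. Spearman's rho over 19510 windows of 100 kb was 0.647 with 24 h replicate 1 and 0.656 with replicate 2, each over the mean of H2AX, and 0.725 with replicate 2 in all bins. At 1 Mb rho was 0.838 and 0.847, and 0.893 with all bins. At 10 kb it was 0.240 and 0.241. It was positive within each of 23 chromosomes at each size, but weak on some. At 100 kb in the joint comparison it ran from 0.254 to 0.754 for replicate 1 and from 0.265 to 0.794 for replicate 2. At 10 kb it ran from 0.075 to 0.315 and from 0.028 to 0.331. From the lowest to the highest decile of windows by the HepG2 ratio, 24 h replicate 1 went from -0.29 to 0.26 and replicate 2 from -0.32 to 0.26, while the HepG2 ratio itself went from -0.34 to 0.29. H2AX replicate 1 less replicate 2 went the other way, from 0.09 to -0.09. In HepG2 the classes of K562 H3K27me3 gave 0.13 in the lowest and -0.27 in the highest. The γH2AX libraries of both lines share their antibody, and the libraries titled H2AX share theirs; the part of the antibodies in the likeness was not tested.

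**Figure D3:**
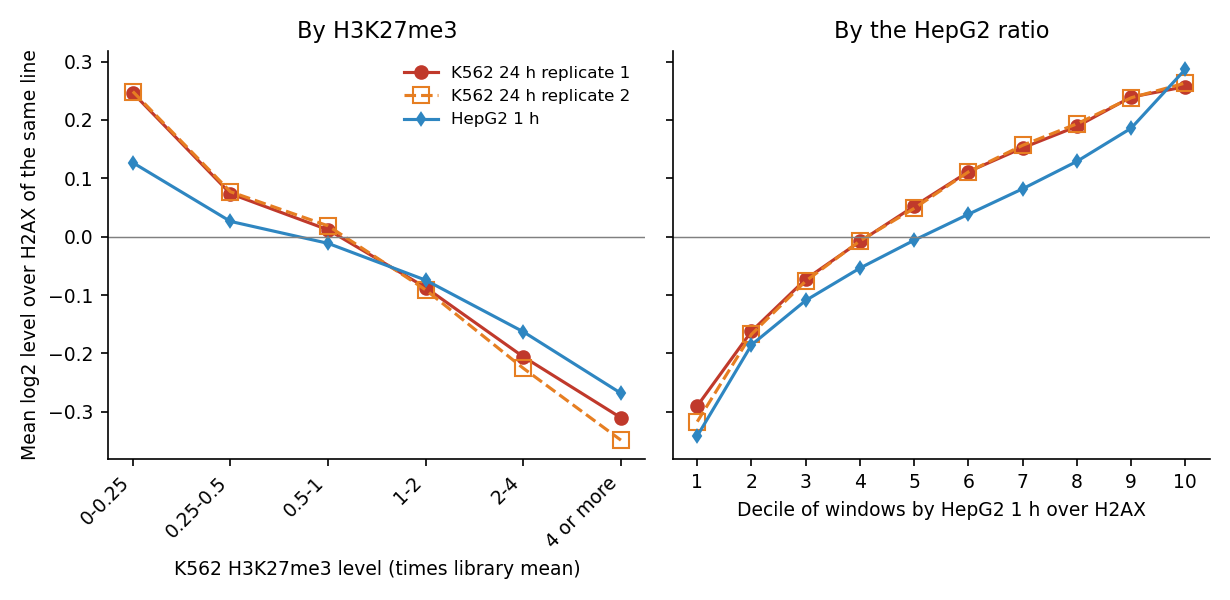
Mean log2 level over H2AX of the same line for K562 24 h replicate 1, K562 24 h replicate 2 and HepG2 at 1 h, in 100-kb windows at or under the limit, by class of K562 H3K27me3 (left) and by decile of the HepG2 ratio (right). The K562 replicates overlie each other, falling from 0.25 to -0.31 and -0.35 with H3K27me3 and rising from -0.29 and -0.32 to 0.26 with the HepG2 ratio.

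Against K562 γH2AX at 1 h the 24 h pattern depended on the bins used. In the bins at or under the limit, with a different H2AX library under each time, Spearman's rho between the 1 h and 24 h ratios over 100-kb windows was between 0.692 and 0.722. The top decile of windows by the 1 h ratio exceeded the bottom decile at 24 h by 0.54 in both replicates, averaged over both ways of sharing out the H2AX libraries. In all bins rho with replicate 2 was 0.158 and 0.087. The 1 h and HepG2 ratios had rho 0.161 in all bins, against 0.725 for 24 h replicate 2 and HepG2.

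The change of order came with the depth of the 1 h tracks in 1-kb bins. From the lowest depth class (up to 0.2) to the class just under the limit (1.4 to 1.642), the ratio of 24 h replicate 1 to mean H2AX rose from 0.958 to 1.04 and that of replicate 2 from 0.940 to 1.06. Just above the limit replicate 2 was at 1.06 and replicate 1 at 0. With further depth the ratio of replicate 2 went to 1.02 (2 to 2.5), 0.866 (3 to 4), 0.814 (4 to 6) and 0.791 (above 6). In those deepest bins the level of replicate 2 was 1.91, that of H2AX 2.49 and 2.33, and that of 1 h 7.80 and 10.3. 24 h replicate 2, H2AX and 1 h were thus above their library means there, 24 h replicate 2 less than H2AX, while H3K27me3 was at 0.197. HepG2 γH2AX over H2AX went from 1.03 in the class under the limit to 0.845 in the deepest, and H2AX replicate 1 over replicate 2 from 0.979 to 1.07. By chromosome, only the ratio of 24 h replicate 2 to mean H2AX was followed. For it, the class under the limit was above the lowest class in 22 of 23 chromosomes, and chromosome 22 (0.780 to 0.757) was the exception. Its deepest class was below the class under the limit in 22 of 23, and chromosome 13 (1.14 to 1.24) was the exception.

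**Figure D4:**
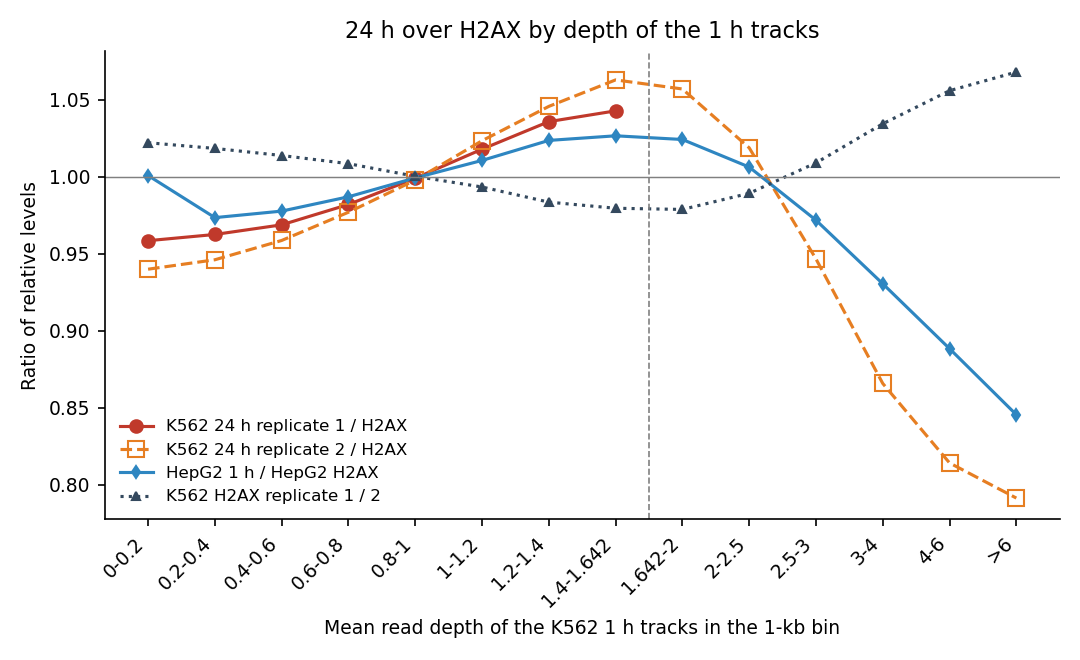
Ratio of relative levels by class of mean read depth of the K562 1 h tracks in 1-kb bins, for each 24 h library over mean H2AX, HepG2 γH2AX over HepG2 H2AX, and H2AX replicate 1 over replicate 2; the dashed vertical line is the limit of 1.642, above which 24 h replicate 1 is at 0 and not drawn. Both 24 h libraries rise up to the limit, and replicate 2 falls from 1.06 to 0.791 above it.

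Among 100-kb windows, those with less than 10% of their bins under the limit had 24 h replicate 2 at -0.24 from H2AX (1878 windows, 84.7% below both H2AX libraries). Those with 50% to 75% of their bins under the limit had it at 0.14 (6395 windows, 68.1% above both). The order was not a steady rise: windows with 75% to 90% and with 90% or more of their bins under the limit (3098 and 10135 windows) were both at 0.06, with 55.9% and 55.6% above both. The joint comparison left out windows with under 50% of their bins, so it lacks the first of these classes and the windows from 10% to 50%. Replicate 2 averaged -0.11 in windows with 10% to 25% (2225 windows, 64.5% below both and 31.6% above both). In those with 25% to 50% it averaged -0.02 (3927 windows, 51.1% below both and 44.6% above both).

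K562 carries segments of raised copy number, and 81 windows had K562 H2AX at 3 or more times HepG2 H2AX, on chromosomes 9, 13 and 22. They did not move alike at 24 h. In the 30 windows on chromosome 13, replicate 2 averaged 5.38 against 4.06 and 4.38 in H2AX, a log2 difference of 0.35. In the 43 windows on chromosome 22 it averaged 5.01 against 6.53 and 6.07, a difference of -0.34, and in the 8 windows on chromosome 9 it averaged 6.41 against 8.01 and 7.43, a difference of -0.29. H3K27me3 averaged 0.987 in the chromosome 13 windows, 10.9 in those on chromosome 22 and 17.6 in those on chromosome 9, values that contain the copy number too.

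The peak lists deposited for 24 h hold 8 peaks for replicate 1 and 13 for replicate 2, with 15 of the 21 on chromosome 22, 4 on chromosome 9 and 1 each on chromosomes 7 and 12. The track of replicate 1 stood at 0 at all 21, its own 8 included. The track of replicate 2 was below both H2AX libraries at 21 of 21, with a median level of 5.17 against 8.30 and 7.13. To set aside the copy number, the level in a peak was divided by that of its flanks from 5 to 50 kb. The median of this local ratio was 1.07 in 24 h replicate 2, 1.22 and 1.14 in H2AX, and 2.09 and 2.21 in the 1 h libraries. Replicate 2 was below both H2AX libraries by this ratio at 17 peaks and above both at 2, and below its own flanks at 9. At 18 of the 21 peaks both 1 h libraries were above 24 h replicate 2 and both H2AX libraries.

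The peaks with the highest fold in the deposited list of 24 h replicate 2 were chr22:22647807-22648232 (caller's fold 6.86) and chr22:22645284-22645596 (6.68). In the first, the local ratio of 24 h replicate 2 was 0.281, that of H2AX 0.562 and 0.449, and that of 1 h 3.04 and 5.06. In the second it was 0.133 in 24 h replicate 2, 0.553 and 0.484 in H2AX, and 2.65 and 4.32 at 1 h. In replicate 1's list the peak with the highest fold, chr7:132671380-132671673 (6.27), had a local ratio of 0.446 in 24 h replicate 2, 0.580 and 0.979 in H2AX, and 1.64 and 0.965 at 1 h. The peak at chr12:58217045-58217338 had 1.52 in replicate 2, 1.60 and 1.92 in H2AX, and 5.20 and 5.24 at 1 h. At 15 of the 21 peaks, the 1 h library with the same replicate number as the list had the higher local ratio of the 1 h pair. At most of the peaks listed for 24 h, the local ratio of 24 h replicate 2 was thus not above that of H2AX, while that of both 1 h libraries was; how the lists relate to the tracks was not tested, and the control behind the caller's fold is not known here.

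**Figure D5:**
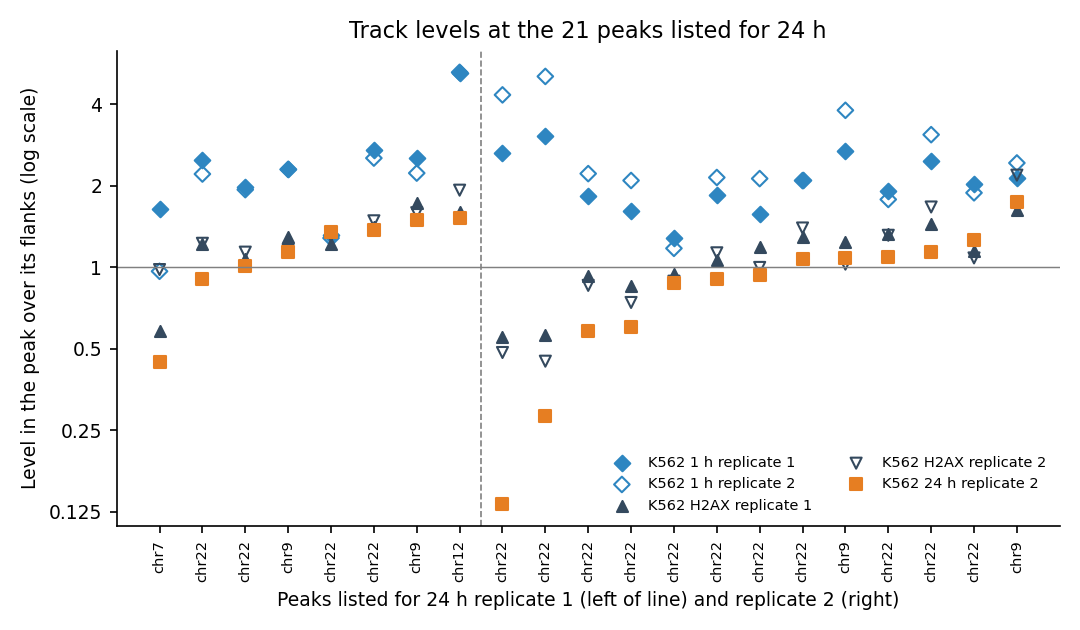
Level in each of the 21 peaks listed for 24 h over the level of its flanks, on a log axis, for K562 24 h replicate 2, the H2AX pair and the 1 h pair; peaks are ordered within each list by the 24 h value, and 24 h replicate 1, at 0 throughout, is not drawn. The 24 h values (median 1.07) lie at or below those of H2AX (medians 1.22 and 1.14) at most peaks, and those at 1 h (2.09 and 2.21) lie above.

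At the 54762 bins under peaks shared by the 1 h lists, the local ratio of 24 h replicate 2 was 1.11, against 1.19 and 1.15 in H2AX and 2.15 and 2.29 at 1 h. In the fifth of these bins with the deepest 1 h signal, it was 1.14 at 24 h, 1.24 and 1.20 in H2AX and 2.71 and 3.01 at 1 h. HepG2 γH2AX was at 1.08 at the same bins, against 1.13 and 1.13 in HepG2 H2AX. Averaged around 24545 centres of shared 1 h peaks, replicate 2 stood at 1.35 at the centre and 1.24 at 49 kb, H2AX replicate 1 at 1.75 and 1.52, and H2AX replicate 2 at 1.65 and 1.45. The 1 h libraries stood at 3.81 and 4.17 at the centre and at 2.06 and 2.24 at 49 kb. At the sites of 1 h peaks the local rise in 24 h replicate 2 was thus smaller than that in either H2AX library. With 1 usable 24 h library there, this difference has no replicate check.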

How the data were processed

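CUT&RUN tracks were compared as deposited. The deposited signal is coverage, the authors' mean read depth in 1-kb hg19 bins, not scaled to depth. The authors' deposited peak lists give a fold enrichment (ratio) and −log10 p and q per peak, per library. Per the submitters' processing notes, the tools included MACS2, BWA 0.7.12 and SAMtools. Each track was divided by its mean without chromosome Y and averaged into windows of 10 kb, 100 kb and 1 Mb with at least 50% of their bins and K562 H2AX at 0.25 or more. The tests were limma 3.58.1 in R 4.3.3 with a trend, on log2(level + 0.05), which understates changes of low windows, adjusted over all windows, with the 4 libraries only (joint comparison) or all libraries but 24 h replicate 1. The script was tested on simulated data. Named windows are the 10 most changed in each direction among those called and alike in all library pairs (10-kb ones are not printed, being near the spread of replicates), the 5 longest runs, and the 5 extremes of replicate 2; listed gene sets were not used, without an hg19 annotation. The libraries, lists and tests were chosen with earlier results of these data known. The splits by HepG2, gene density, position and peak flanks were added after the data were seen. Intervals of depth cover counting error only.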

Additional observations from a re-analysis of the deposited data

How the results depend on the processing

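The joint count of called windows depended on the filter, the limit and the libraries; limma calls are given at 10 kb, 100 kb and 1 Mb in that order where 3 are given. It was 5273, 6348 and 573 with at least 80% of bins, 102, 5132 and 726 with a limit of 1 on the 1 h depth, 0, 446 and 337 with all 10 libraries in a single fit, and 0, 0 and 0 with replicate 1 as deposited and no limit (6180, 410 and 480 at an unadjusted p under 0.05). Without the filter on low H2AX the 10-kb count was 80. Leaving out a library gave 43 to 15140 at 10 kb, 6491 to 10585 at 100 kb and 1330 to 1752 at 1 Mb. Replicate numbers are shared by the groups, but nothing in the labels makes them pairs, and deviations with the same number correlated at 0.01, 0.05 and 0.19 over windows. With the replicate number as a block the counts were 9604, 11664 and 1697. For replicate 2 in all bins, dropping the filter gave 57 at 10 kb and 2 at 100 kb, using only it and H2AX gave 36974 and 15262, and leaving out either H2AX library gave 0 at 1 Mb. The causes were not tested.

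The 20 named 100-kb windows kept their calls wherever they had a value, except that 18 kept it with all 10 libraries and 0 with replicate 1 as deposited. A 10-kb window on chromosome 13, named by the rule, reversed to -0.60 with replicate 1 as deposited. With median-of-ratios scaling chromosomes 2, 3, 5, 6, 7 and 18 reversed, to -0.0195, -0.018, -0.0046, -0.0088, -0.0581 and -0.0381. The SD over windows was 0.27 with a pseudocount of 0.01, 0.34 at 10 kb, 0.23 at 1 Mb and 0.23 to 0.29 without a library. The difference between deciles of the 1 h ratio was 0.57 with that pseudocount, 0.55 with median-of-ratios scaling, 0.47 at 10 kb and 0.55 at 1 Mb. The H3K27me3 difference was -0.35 at 10 kb, -0.49 at 4 or more times the mean and -0.47 to -0.33 without a library. The mean of the 2 rank correlations between ratios was 0.393 at 10 kb and 0.964 at 1 Mb. At peaks with q under 0.01 the median local ratio of replicate 2 was 1.07. Chromosome values were taken over bins, so window size does not apply to them. The 10-kb windows held an estimated median of 101 and 110 reads at 24 h. Counting error alone was estimated to give an SD of 0.21 between the 24 h replicates there, against 0.35 observed. The part of depth in that spread was not tested.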
